A study of Homo sapiens with 6 samples.

Results

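Protocadherins are the largest family of cadherin-like adhesion proteins, and 67 of the 60675 genes of the deposited count table were taken as members. They were the rows whose symbol begins with PCDH, 77 in all, without 6 pseudogene symbols and 4 antisense symbols. By genomic arrangement they fell into 16 alpha, 16 beta and 22 gamma cluster genes and 13 genes outside the clusters. RNA came from SUM159, an established line from a human triple-negative breast carcinoma, grown in Ham's medium with serum, insulin and hydrocortisone. There were 3 libraries labelled control, with the genotype DAPK3 WT, and 3 labelled DAPK3 KO, made from knockout line number 3. Only 1 knockout line was profiled, the libraries held polyA-selected RNA, and the labels do not say whether replicates were separate cultures, so p-values here measure the spread between libraries, which may be technical. The purpose given for the series was to find genes whose expression is altered by knockout of DAPK3, a serine/threonine kinase.

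Clustered protocadherins are best known from neurons, where each cell uses a small choice of variants as a surface identity for recognising its own branches. Each variant has its own promoter and its own large exon, which encodes the extracellular cadherin repeats and the transmembrane segment. Alpha and gamma variable exons are spliced to a set of constant exons that encode a common cytoplasmic tail, whereas beta genes are single-exon genes without such a tail. Promoter choice depends on looping by CTCF and cohesin, and unused promoters carry DNA methylation. The genes outside the clusters include the delta protocadherins, which act in adhesion and actin control and are silenced by promoter methylation in many carcinomas.

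The level of DAPK3 RNA did not match the label for 1 control and 1 KO library, so libraries are called here by the label they carry. DAPK3 stood at 26.2, 10.5 and 26.1 CPM in those labelled control R1 to R3, and at 13.1, 27.2 and 11.2 CPM in those labelled KO R1 to R3. CPM is the number of expected counts per 1000000 of the library, with its size adjusted by edgeR's TMM factor. Where values are given in order below, the order is R1, R2, R3. Control R2 and KO R2 therefore stood with the other label. Whether these libraries were exchanged cannot be settled from the values used here, and each fold change of KO over control with all 6 libraries is by label and carries that doubt. Calls by label and fold changes of protocadherins are given below with all 6 libraries, where tested, and again without both R2 libraries. Fold changes of single related genes are given only without both R2 libraries. Library totals ran from 16312184 to 22970823 expected counts. Of the markers of the line, KRT18 (276 to 449 CPM), VIM (1425 to 3584 CPM) and EGFR (302 to 518 CPM) were present in each library, as was KRT8 (89.4 to 238 CPM), while PGR was at 0 and ESR1 at most at 0.478 CPM. The epithelial marker EPCAM was at or near 0, with at most 0.0489 CPM. ERBB2 stood at 52.2 to 97.7 CPM. KRT8 (190 to 238 against 89.4 to 139 CPM) and VIM (2743 to 3584 against 1425 to 1898 CPM) were higher in the 3 libraries of high DAPK3 than in the others, and KRT18 was lower in them (276 to 329 against 421 to 449 CPM).

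The following exon junctions are shown because they set what can be counted for the alpha and gamma genes. Lower case letters are the last 24 bases of the variable exon, and capitals are the first 36 bases of the first constant exon, taken from GENCODE release 29 transcripts on GRCh38, plus strand.
PCDHA4: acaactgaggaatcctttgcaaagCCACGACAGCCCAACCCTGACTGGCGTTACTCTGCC
PCDHAC2: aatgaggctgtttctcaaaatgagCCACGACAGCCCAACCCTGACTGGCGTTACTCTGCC
PCDHGC3: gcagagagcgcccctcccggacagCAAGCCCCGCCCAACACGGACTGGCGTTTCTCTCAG
PCDHGA6: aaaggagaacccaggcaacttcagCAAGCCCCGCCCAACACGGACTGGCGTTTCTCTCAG
PCDHGB7: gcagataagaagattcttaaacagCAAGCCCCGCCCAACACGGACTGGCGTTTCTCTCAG

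The lower case parts differ between all 15 protein-coding alpha genes and between all 22 gamma genes, while the capitals are 1 sequence in each cluster. The first constant exon lies at chr5:140978949-140979007 for alpha and at chr5:141494807-141494865 for gamma, 59 bases in each case. In the annotation, each of the 16 alpha genes shared exon bases with another member, with a median of 46.6% of its exon bases (range 21.3% to 100%). The one at 100% was PCDHA14, which is annotated as a transcribed pseudogene and was kept because its symbol met the rule. Each of the 22 gamma genes also shared exon bases, with a median of 43.8% (range 27.6% to 64.4%). None of the 16 beta genes and none of the 13 others did. A read from a constant exon belongs to no single variant, and RSEM divides such reads by estimate. Of the expected counts above 0, 70.4% were not whole numbers for alpha genes and 57.9% for gamma genes, against 26.7% for beta and 30.0% for the other genes. Values of single alpha and gamma genes are uncertain to that extent, and the cluster sums given below depend less on the division.

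Most clustered promoters hold a conserved element with the core CGCT, and the windows below are shown for some of the genes whose values are described. They are 24 bases of RefSeq promoters (GRCh38.p14, plus strand, 250 bases before to 50 after the annotated start), with the core in capitals.
PCDHB2: gagacgcggggtggCGCTgcagcc
PCDHB5: aggacgcctggtggCGCTgcaggc
PCDHB14: gagacacatggtggCGCTacagga
PCDHB15: acaacgcatggtggCGCTgcaggc
PCDHB16: agaacgcgtggtggCGCTgcaggt
PCDHGC3: gggactctgtgtgcCGCTgtcggc
PCDHGA6: aggactctaagcgtCGCTgttgac
PCDHA4: gagccacatgatgtCGCTctttac

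The window of PCDHB5 lies at chr5:141135181-141135204, with its core 11 bases before the annotated start, and that of PCDHB2 at chr5:141094546-141094569, with its core 55 bases before the start. Of the 67 members 58 had a RefSeq promoter. The letters GGTGGCGCT, searched on both strands, were present in 13 of 14 beta promoters, in 0 of 20 gamma and 0 of 13 alpha promoters, and in 0.501% of all 35116 promoters of this length. The exception was PCDHB1. GNCGCTGT was present in 17 of 20 gamma promoters, 5 of 13 alpha promoters and 4.35% of all promoters, and GATGTCGCT in 9 of 13 alpha promoters and 0.105% of all. These letter strings were chosen after the promoters had been read, and the core CGCT alone is inside each of them and in 70% of all promoters. Among the alpha, beta and gamma promoters only that of PCDHA9 lacked the core. PCDHB2, PCDHB5, PCDHB14, PCDHB15 and PCDHB16 all carried the beta string, although their levels differed between libraries in different ways, as described below.

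The counts of the family were concentrated in 4 genes. PCDH9, PCDHGC3, PCDH7 and PCDH17 together held between 78.5% and 85% of all protocadherin counts in each library. In contrast, 7 genes were listed at 0 in all 6 libraries and 32 had at most 3 counts in any library after rounding to whole numbers, which is the limit taken here for a gene that was off. A gene was taken as on in a library at 1 CPM or more. By that measure 12 genes were on in at least 1 library and 6 in all 6 libraries: PCDH9, PCDHGC3, PCDH7, PCDH17, PCDHB2 and PCDH1. The number on was 10, 9 and 11 across control R1 to R3 and 9, 11 and 7 across KO R1 to R3. The limit of 3 counts corresponds to 0.13 to 0.186 CPM, depending on the library. Intervals and limits of this kind cover counting error only.

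Per kilobase of annotated exon, PCDHGC3 led the family, with a mean level of 4.56 CPM per kilobase over the 6 libraries and a range of 2.45 to 5.94. PCDH7 followed at 1.16 (0.56 to 1.93), PCDH9 at 1.12 (0.52 to 1.92) and PCDH17 at 1.04 (0.76 to 1.39). The lowest library of PCDHGC3 lay above the highest of the 3 that followed, and those 3 overlapped each other. PCDHB2 came next at 0.693 CPM per kilobase (0.3 to 0.95). Exon lengths are unions over GENCODE transcripts, so long annotated ends lower the value of a gene such as PCDH9, which has 30944 exon bases.

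**Figure D1:**
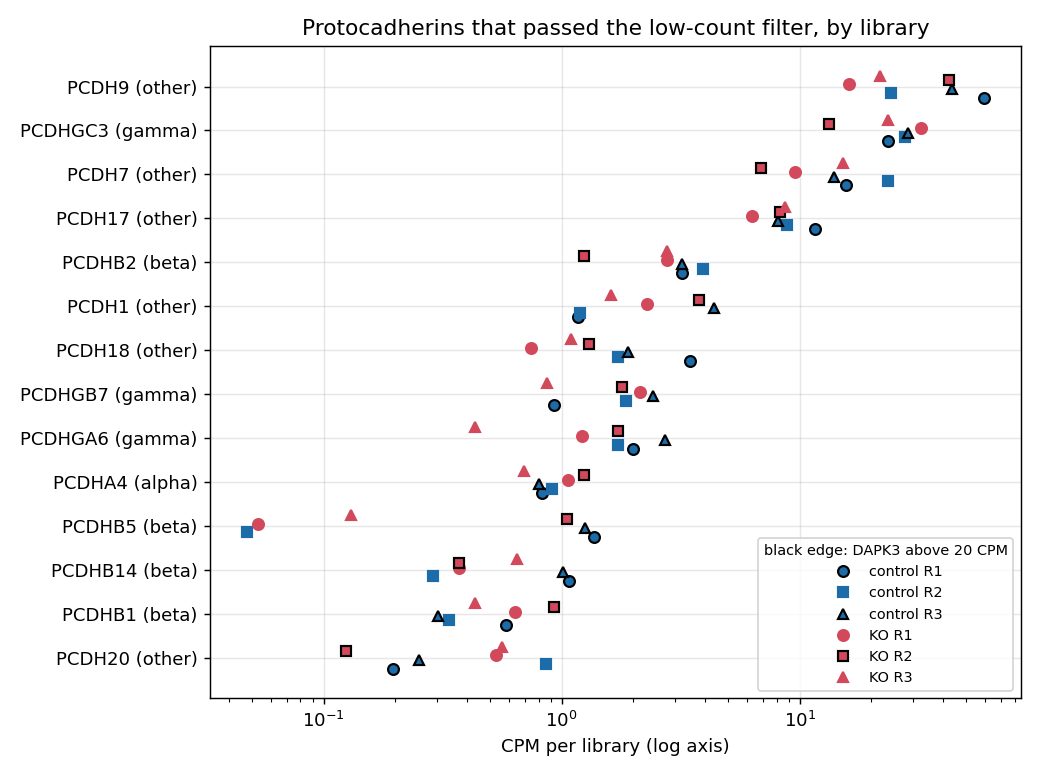
CPM (log axis) of the 14 protocadherins that passed the low-count filter, 1 point for each of the 6 libraries, with a black edge where DAPK3 was above 20 CPM. PCDH9, PCDHGC3, PCDH7 and PCDH17 lie highest, and PCDHB5 is the gene with the widest gap between libraries.

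The alpha cluster was almost silent. Its summed level was 1.12, 1.05 and 1.51 CPM across control R1 to R3 and 1.33, 1.67 and 0.738 CPM across KO R1 to R3. PCDHA4 (ENSG00000204967, chr5:140806929-141012344) held 53.4% to 94.1% of the cluster's counts. Its expected counts were 17.3, 18.64 and 16.02 in control and 20.18, 20.24 and 15.92 in KO. The groups overlapped, and PCDHA4 had the smallest share of exon bases in common with other alpha genes. PCDHAC2, a C-type variant next to the constant exons, had 6.02 expected counts in control R3, 1 in KO R1 and 0.68 in KO R2, and 0 in the other libraries. PCDHA9 had at most 3.01. Of the 16 alpha genes 14 had at most 3 rounded counts in each library.

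Beta genes share no annotated exon bases, but they are similar in sequence, and some of their expected counts were not whole, so RSEM divided reads for them too. Low values of single beta genes are uncertain to that extent. PCDHB2 (ENSG00000112852, chr5:141094578-141098703) was the leading beta gene and was on in all 6 libraries. It stood at 3.22, 3.92 and 3.22 CPM across control R1 to R3 and at 2.76, 1.24 and 2.78 CPM across KO R1 to R3. The libraries labelled KO were all below those labelled control, with KO R2 lowest by a wide margin. The difference did not pass the test (log2 fold change −0.61, SE 0.37, edgeR adjusted p = 0.71), and it was −0.23 without both R2 libraries.

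PCDHB5 (ENSG00000113209, chr5:141135218-141138625) was the 1 gene of the family that was on in some libraries and off in others. With on at 0.5 CPM there were 8 such genes, PCDHB5 with PCDHB9, PCDHB15, PCDHGA1, PCDHGA10, PCDHGB2, PCDH12 and PCDH20, and with on at 2 CPM there were 0. It had 28, 1 and 25 counts across control R1 to R3 and 1, 17 and 3 counts across KO R1 to R3. In CPM these were 1.37, 0.0478 and 1.26 in control and 0.0531, 1.05 and 0.13 in KO. The labelled groups overlapped, because control R2 stood with KO R1 and KO R3, and KO R2 with control R1 and R3. Control R1 and R3 together held 53 counts against 4 in KO R1 and R3, a ratio of 13.7 after scaling (95% exact conditional interval 5.06 to 52.3). The R2 libraries gave the opposite direction by label, with 17 counts in KO R2 and 1 in control R2, a ratio of 22 (3.45 to 919). PCDHB5 was picked out by these same counts, so both ratios are descriptions and not tests. Their intervals cover counting error only, not the spread between libraries.

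For the sum of the beta genes with fewer counts, KO R2 lay closer to the libraries of low DAPK3. Leaving PCDHB2 and PCDHB5 aside, the other 14 beta genes together had 99 and 95 expected counts in control R1 and R3, 27 in control R2, and 43, 40 and 41 across KO R1 to R3. Their summed level was 4.84 and 4.83 CPM in control R1 and R3, 1.29 in control R2, and 2.29, 2.47 and 1.78 across KO R1 to R3. KO R2, which joined control R1 and R3 for PCDHB5, lay near KO R1 here, although it was still the highest of the remaining libraries in CPM. PCDHB14 had 22, 6 and 20 counts in control and 7, 6 and 15 in KO. PCDHB16 had 7.74 and 5.59 expected counts in control R1 and R3 and 0 in the other 4 libraries. PCDHB8 had 4 in each of control R1 and R3 and 0 elsewhere, and PCDHB4 had 6 in each of them, 3 in KO R1 and 0 elsewhere. In contrast, PCDHB15 had 6, 1 and 14 expected counts in control and 1.08, 4 and 3 in KO, and PCDHB12 had 7, 0 and 5 against 1, 2 and 1. PCDHB9 had 4.12, 1 and 12.92 against 0, 1 and 1, and PCDHB10 had 5.88, 0 and 1.79 against 1, 2 and 1. In CPM, PCDHB9, PCDHB10, PCDHB12 and PCDHB15 were each higher in control R1, control R3 and KO R2 than in the other libraries, at few counts. For PCDHB9, KO R2 had the same count of 1 as control R2 and KO R3, and its CPM was higher only by library size. For PCDHB10 and PCDHB12 the order rested on 2 counts in KO R2 against 1, and for PCDHB15 on 4 against 3. None of these differences goes beyond counting error. These genes were not tested, and 22.2% of all genes tested had this order. PCDHB6, with 10, 5 and 9 counts in control and 11, 4 and 6 in KO, and PCDHB1, with 12.21, 6.91 and 6 against 12, 14.52 and 10, did not follow either division. With more than 3 counts as the measure, 14, 5 and 12 of the 16 beta genes were detected across control R1 to R3 and 4, 6 and 5 across KO R1 to R3. KO R3, with 5, was the deepest library. At these counts a single gene at 0 cannot be told from one at the limit of 3 counts.

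**Figure D2:**
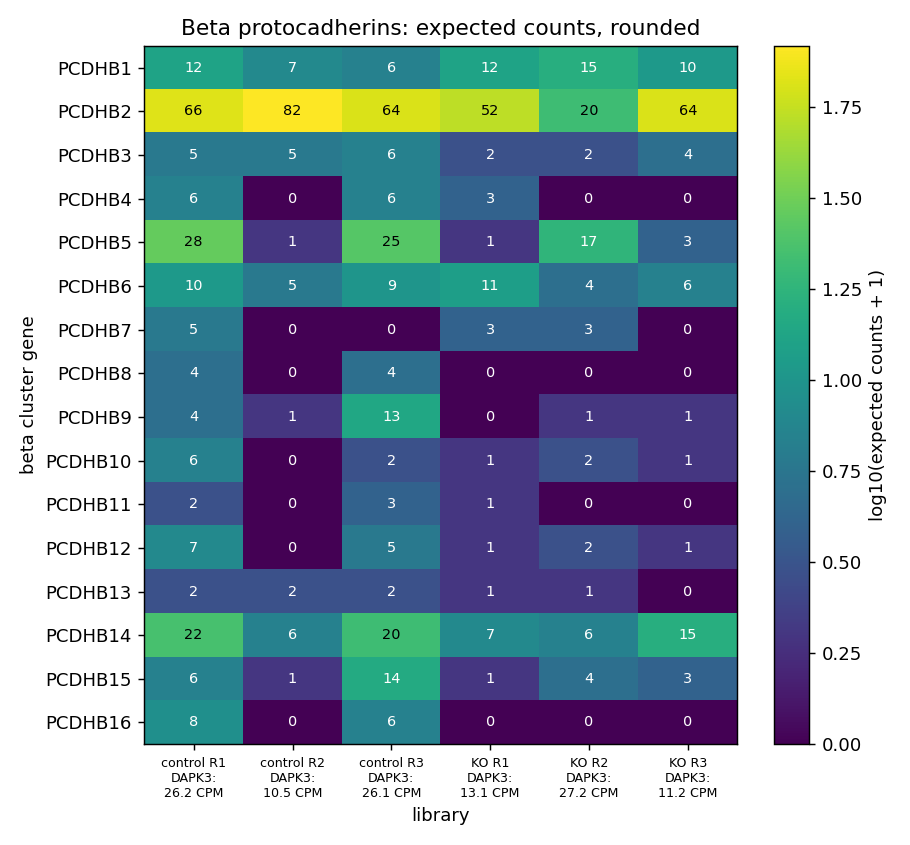
Expected counts, rounded to whole numbers, of the 16 beta genes (rows) in the 6 libraries (columns, with DAPK3 CPM under each label); colour is log10 of the count plus 1. PCDHB2 is filled in all columns, PCDHB5 in control R1, control R3 and KO R2, and PCDHB16 and PCDHB8 in control R1 and control R3.

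The gamma cluster had more counts than the alpha and beta clusters in each library. Its sum was 29.6, 33 and 36.2 CPM across control R1 to R3 and 38.6, 18.6 and 26.4 CPM across KO R1 to R3. PCDHGC3 (ENSG00000240184, chr5:141475947-141512979), a variant of the C type, made up 71.6% to 88.5% of the gamma counts. It stood at 23.6, 27.6 and 28.6 CPM across the control libraries and 32.3, 13.3 and 23.4 across the KO libraries. KO R2 was the lowest library and KO R1 the highest, so the labelled groups overlapped. With all libraries its log2 fold change was −0.21 with an SE of 0.31 (adjusted p = 0.87 by edgeR). Without both R2 libraries the sign turned, to 0.07 with an SE of 0.20 (adjusted p = 0.81 by edgeR).

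PCDHGA6, a variant of the A type, had 41.17, 35.52 and 53.73 expected counts in control and 23.46, 27.86 and 10.22 in KO. In CPM it stood at 2.0, 1.72 and 2.72 in control and at 1.22, 1.73 and 0.434 in KO, with KO R3 lowest and the groups overlapping by KO R2 alone. PCDHGB7, a variant of the B type, stood at 0.928, 1.86 and 2.42 CPM across the control libraries and 2.13, 1.79 and 0.868 across the KO libraries. Its libraries followed neither the label nor DAPK3. The other C-type variants, PCDHGC4 and PCDHGC5, had at most 2 and 1.55 expected counts. Among the less abundant variants PCDHGA1 had 10.03, 3.18 and 7 expected counts in control and 2, 12 and 5 in KO, and PCDHGA10 had 6.81, 3 and 9.51 against 17.25, 1 and 6.35. Of the 22 gamma genes 12 had at most 3 rounded counts in each library.

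Outside the clusters, the delta protocadherins PCDH9, PCDH7 and PCDH17 led. PCDH9 (ENSG00000184226, chr13:66302834-67230445) stood at 59.3, 24.3 and 43.5 CPM across control R1 to R3 and at 16.1, 42.3 and 21.7 CPM across KO R1 to R3. The 3 highest libraries were control R1, control R3 and KO R2, in that order. All 4 antisense rows of PCDH9 were listed at 0. PCDH7 (chr4:30720415-31146805) stood at 15.7, 23.6 and 14 CPM across the control libraries and 9.57, 6.86 and 15.2 across the KO libraries. As for PCDHGC3 and PCDHB2, KO R2 was its lowest library. PCDH17 (chr13:57631810-57729311) varied least of the 4 leading genes, at 11.6, 8.84 and 8.15 CPM across the control libraries and 6.32, 8.29 and 8.68 across the KO libraries.

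PCDH18 (ENSG00000189184, chr4:137518918-137532494), also a delta protocadherin, was lower in each library labelled KO than in each labelled control. It stood at 3.47, 1.72 and 1.91 CPM across the control libraries and 0.744, 1.3 and 1.09 across the KO libraries. PCDH1, an epithelial member of the family, stood at 1.17, 1.19 and 4.38 CPM across the control libraries and 2.29, 3.77 and 1.61 across the KO libraries, and its libraries overlapped. PCDH20 had 4, 18 and 5 counts in control and 2 in KO R2 but 10 and 13 in KO R1 and R3. PCDH12, known from endothelium, had 13 counts in control R3 and at most 4 in the others. PCDH8 and PCDH19 were listed at 0 in each library, and PCDH10 and PCDH15 had at most 2 counts. PCDH11X and PCDH11Y are near-identical, so RSEM split their reads by estimate, and neither exceeded 7.39 expected counts.

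By label, 3 KO against 3 control libraries, no protocadherin was called. After the filter on low counts 14 of the 67 members were tested, 1 alpha, 4 beta, 3 gamma and 6 others. Since the filter keeps genes by their count in some libraries, counts over these 14 do not speak for the family. EdgeR's quasi-likelihood test called 0 of them at an adjusted p under 0.05, against 0% of all 14613 genes tested, with a smallest adjusted p of 0.635 in both. At an unadjusted p under 0.05 there was 1 member, PCDH18, which was lower in KO. Of all genes 4.17% were lower, 3.49% higher and 7.66% either at that p. Limma-voom called 0 members and DESeq2 0 of those to which it gave an adjusted p, and over all genes DESeq2 called 124 (1.17% of those with an adjusted p) and limma-voom 0. For PCDH18 the mean was 2.37 ± 0.959 CPM for control and 1.04 ± 0.28 CPM for KO (SD, n = 3). Its log2 fold change was −1.18 with an SE of 0.41 (adjusted p = 0.63 by edgeR). PCDH7 was at −0.75 (SE 0.34), PCDH9 at −0.67 (SE 0.45) and PCDHB5 at −1.16 (SE 1.27). PCDHGA6 was at −0.94 (SE 0.52), PCDHB14 at −0.74 (SE 0.59), PCDH17 at −0.29 (SE 0.23) and PCDHGB7 at −0.13 (SE 0.49). PCDH20 was at −0.08 (SE 0.78), PCDH1 at 0.18 (SE 0.62), PCDHA4 at 0.23 (SE 0.36) and PCDHB1 at 0.69 (SE 0.49). The median log2 fold change was −0.45 over the 14 members and 0 over all genes tested. The libraries of the labels did not overlap for 2 of the 14, PCDHB2 and PCDH18, both lower in KO. Of all genes tested 6.86% had KO lower and 6.97% KO higher in this way. For a single gene, 3 libraries against 3 allow no exact permutation p under 0.1.

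Without both R2 libraries, 3 protocadherins were called and each was lower in KO: PCDHB5, PCDH9 and PCDH18. They were 3 of 15 members tested, while 15.2% of all 14846 genes tested were called lower, 12.2% higher and 27.3% in either direction. With 3 of 15, the members were called lower about as often as genes at large, and the difference was not tested. PCDHB5 fell by 3.72 on the log2 scale (SE 0.58, edgeR adjusted p = 0.005). PCDH9 fell by 1.45 (SE 0.21, edgeR adjusted p = 0.0037). PCDH18 fell by 1.55 (SE 0.44, edgeR adjusted p = 0.039), a call that was lost without control R1 (−1.06), without KO R1 (−1.30) and with DESeq2. PCDHGA6 stood at −1.55 (SE 0.52, edgeR adjusted p = 0.065) and PCDHB14 at −1.01 (SE 0.47, edgeR adjusted p = 0.15). PCDH20 stood at 1.26 (SE 0.54, edgeR adjusted p = 0.13). PCDHB2, PCDH7, PCDH17, PCDHA4 and PCDHGB7 stood between −0.40 and 0.08, PCDH1 at −0.54, PCDHB1 at 0.24 and PCDHGA10, which was not tested with all libraries, at 0.40. Without control R1 as well, 2543 genes were called in place of 4055, and of the members PCDHB5 and PCDH9. The libraries left out were chosen with their DAPK3 level known, so these p-values do not test the labels independently.

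**Figure D3:**
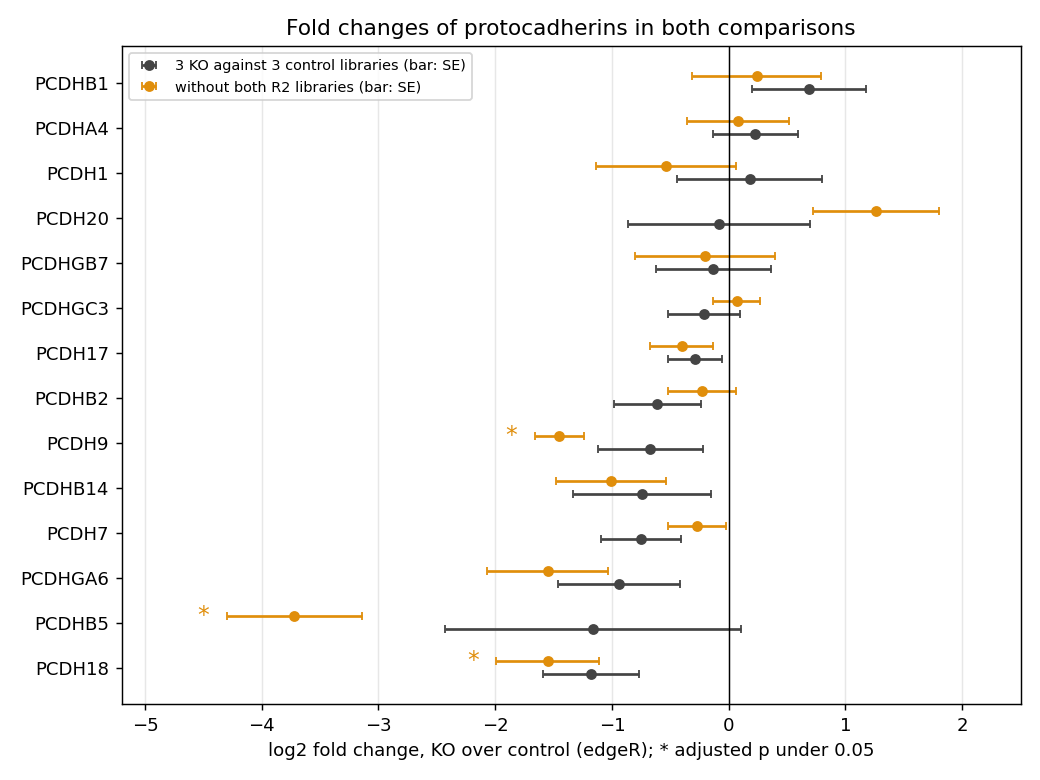
Log2 fold change of KO over control from edgeR for the 14 tested protocadherins, with all 6 libraries (grey) and without both R2 libraries (orange); bars are 1 SE and stars mark an adjusted p under 0.05. Stars stand at PCDHB5, PCDH9 and PCDH18 in the comparison without both R2 libraries.

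Set beside DAPK3 RNA, as a description with no test, 3 of the 14 tested members were higher in each of control R1, control R3 and KO R2 than in any of the other libraries: PCDHB5, PCDH9 and PCDHGA6. That order was found for 22.2% of all 14613 genes tested, so the members did not stand out from it. For PCDHGA6 it rested on 1.73 CPM in KO R2 against 1.72 in control R2, which is no difference beyond counting error. PCDH20 had the opposite order, which 21.3% of all genes had. PCDHB5 had a wide gap between its groups of libraries, 1.05 to 1.37 CPM against 0.0478 to 0.13. PCDH9 ranged from 42.3 to 59.3 CPM against 16.1 to 24.3. PCDHGC3, PCDHB2 and PCDH7 did not have this order, and within the libraries of high DAPK3 each was lowest in KO R2.

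Some markers of other cell types moved in the same order of libraries. The summed level of the 8 neuronal and glial markers was 82.9 to 138 CPM in control R1, control R3 and KO R2 and 8.72 to 15.7 CPM in the others, nearly all of it MAP2, while NEUROD1, SOX10 and STMN2 were at 0 in each library. SNAP25 was divided in the same way at a low level (0.495 to 1.07 against at most 0.0478 CPM), whereas SYP, RBFOX3 and GFAP were not. The 4 stromal markers summed to 522 to 655 CPM against 60.8 to 75.1, nearly all of it COL1A1 (492 to 626 against 55.6 to 64 CPM). PDGFRB was divided in the same way, whereas DCN and LUM were not. Sums of the 5 blood markers (10.5 to 14.4 CPM) and the 4 luminal markers (5.84 to 11.4 CPM) did not divide the libraries in that way. PTPRC did, at 2.92 to 3.28 CPM against at most 0.106. The opposite order was found for the blood marker CD68 (6.8 to 8.5 against 10.7 to 13.6 CPM). It was also found for the luminal marker FOXA1 (0.866 to 1.41 against 1.59 to 2.77 CPM). The part of these markers in the protocadherin values was not tested. In bulk RNA, fewer cells that use a gene and less RNA per cell cannot be told apart.

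**Figure D4:**
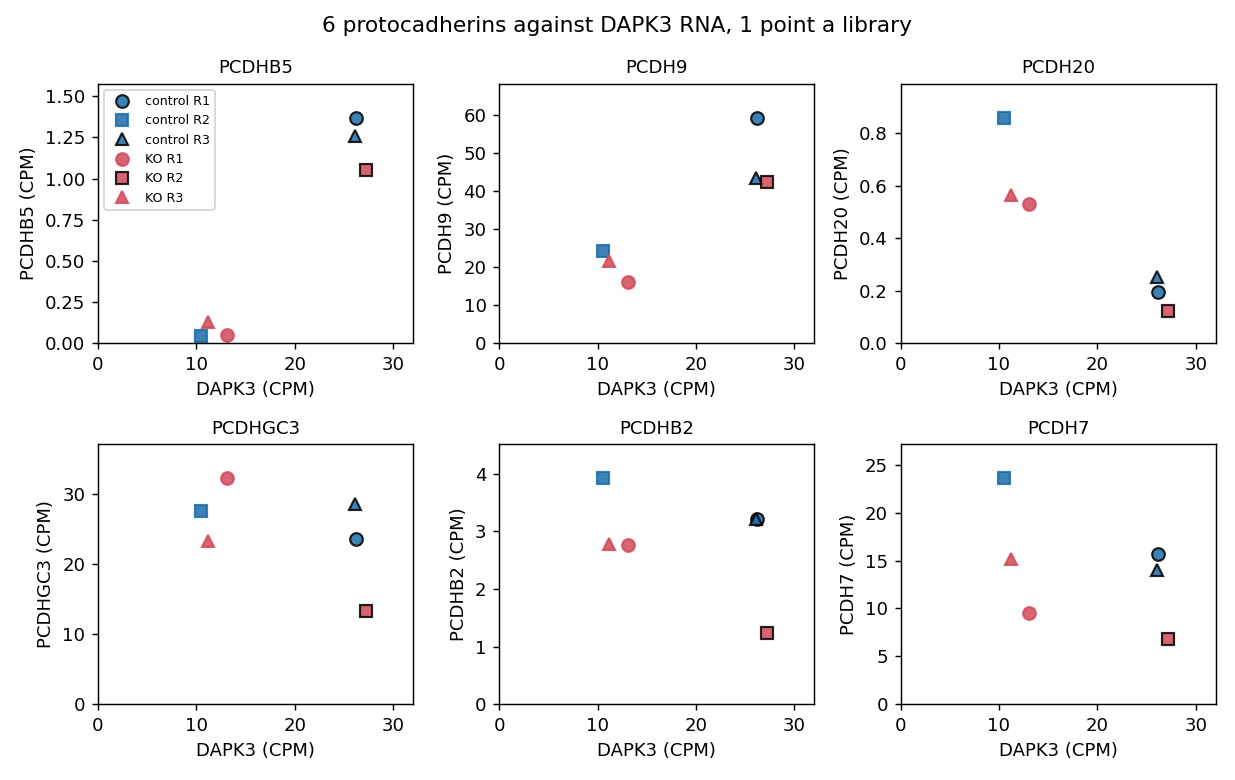
CPM of 6 protocadherins (vertical axes from 0) against DAPK3 CPM (horizontal axes), 1 point for each library. PCDHB5 and PCDH9 are high and PCDH20 is low in the 3 libraries near 26 to 27 CPM of DAPK3, whereas PCDHGC3, PCDHB2 and PCDH7 show KO R2 as the lowest point.

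Genes that act with protocadherins, and related cadherins, were read from a list of 53 genes, of which 44 were tested. With all 6 libraries 0 were called, against 0% of all genes, and the median log2 fold change was −0.07. Without both R2 libraries 11 of the 44 were lower and 1 was higher, against 15.2% of all genes lower and 12.2% higher; the difference from all genes was not tested. The counts of called genes that follow are from the comparison without both R2 libraries. Of 8 genes for looping at the clustered promoters, 2 were lower, the cohesin subunit genes RAD21 and SMC1A. RAD21 stood at 344, 208 and 285 CPM across the control libraries and 165, 272 and 204 across the KO libraries. CTCF, which binds the clustered promoters, stood at 93.3, 103 and 81.6 CPM across the control libraries and 106, 106 and 108 across the KO libraries and was not called (log2 fold change 0.27, SE 0.12, edgeR adjusted p = 0.13).

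Of 7 silencing genes, 3 (42.9%) were lower without both R2 libraries, DNMT1, DNMT3B and TRIM28, against 15.2% of all genes. DNMT3B, a DNA methyltransferase, stood at 4.79, 3.39 and 5.18 CPM across the control libraries and 1.54, 3.52 and 2.17 across the KO libraries. SMCHD1, a chromatin protein that silences clustered protocadherins, was not called (log2 fold change −0.20, SE 0.11). Of 13 tested cytoplasmic partners, 4 (30.8%) were lower in that comparison, FYN, CYFIP2, NCKAP1 and ABI2, against the same 15.2%. CYFIP2, a subunit of the WAVE actin regulator, stood at 23.7, 4.83 and 29.6 CPM across the control libraries and 5.9, 23.6 and 5.04 across the KO libraries. FYN, a Src family kinase, stood at 62.6, 19 and 65.1 CPM across the control libraries and 28.4, 82.8 and 25.5 across the KO libraries. Both were higher in control R1, control R3 and KO R2 than in the other libraries, as were 22.2% of all genes. Of the other related genes called, RAD21, DNMT1, DNMT3B, TRIM28, NCKAP1, ABI2 and ADAM10 had the same order. FAT2 had the opposite order, and SMC1A and FAT4 had neither. These genes were called on the R1 and R3 libraries, which are part of the same order, so the order is no separate evidence.

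Of 7 genes for membrane cleavage, ADAM10, the shedding protease, was lower without both R2 libraries. Of 9 tested giant and related cadherins, FAT2 was higher and FAT4 lower in that comparison. FAT2 stood at 1.22, 11.9 and 1.21 CPM across the control libraries and 2.23, 1.11 and 7.51 across the KO libraries, and FAT4 at 10.7, 5.26 and 9.41 against 4.41, 5.01 and 4.65. FAT1 stood at 183 to 234 CPM in control and 182 to 216 in KO and was not called, and FAT3 had at most 2 counts.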

How the data were processed

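The deposited values are expected counts from the authors' RSEM run, estimated reads of each gene with no normalization, per the file headers. RSEM, Bowtie2, edgeR and GRCh38 are named in the submitters' processing notes; for the versions, the annotation and the strand setting, "not given in the sources used here" applies. Reads of a gene and its antisense partner may therefore be mixed. Expected counts were rounded to whole numbers, also for CPM and the limit of 3 counts, and tested with edgeR 4.0.16 in R 4.3.3 (TMM, filterByExpr, quasi-likelihood test, Benjamini-Hochberg adjustment over all genes tested, no block), 3 libraries labelled KO against 3 labelled control. Standard errors were derived from each fold change and F statistic. DESeq2 1.42.0, limma-voom (limma 3.58.1), other scalings and filters, the replicate block and each library left out were alternatives. The fit was also run on simulated counts, with no library against its label and with changes placed only in genes of higher counts. That run does not speak for the doubt over the R2 libraries or for genes with few counts.

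Coordinates and exon lengths are from GENCODE release 29 on GRCh38, which may differ from the authors' release; all 67 members were found by identifier. Promoters are from RefSeq, GRCh38.p14.

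Members and lists were chosen with earlier results of these data known. Genes to be named were those called in either comparison, switched between libraries, at 5 CPM or more in any library, or among the 3 highest of a set, and of the related list the 6 largest called changes with CTCF, SMCHD1 and the FAT genes. The further genes named were chosen after their values were seen.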

Additional observations from a re-analysis of the deposited data

How the results depend on the processing

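With all 6 libraries, edgeR called 0 genes and 0 protocadherins under RLE, upper-quartile and library-total scaling, without a filter, with a filter of 1 CPM, with limma-voom, and with each library left out (0 to 0). DESeq2 called 124 genes and 0 of the protocadherins with an adjusted p. Leaving out both R2 libraries gave 4055 genes and 3 protocadherins. At an adjusted p under 0.1 there were 0 protocadherins. Deviations from the label means were correlated negatively between same-numbered libraries (r = −0.68, −0.859 and −0.731 for R1, R2 and R3 over 14613 genes). Libraries of similar DAPK3 level were correlated positively, such as control R2 with KO R3 (0.818) and control R1 with KO R2 (0.79). With both R2 libraries against their label, these values cannot show whether the numbers pair the samples. With the replicate number as a block 0 genes were called.

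Of the 11 named members tested, the log2 fold change of PCDHGB7 reversed without KO R3 (0.15) and without control R3 (0.18), in a range of −0.43 to 0.18 over the libraries left out. PCDHGC3 reversed without KO R2 (0.05, range −0.54 to 0.05) and without both R2 libraries (0.07). The other 9 kept their sign in each alternative that gave a value. PCDH20, PCDH1 and PCDHB1 were tested but were not among these 11. Without both R2 libraries PCDH20 reversed from −0.08 to 1.26 and PCDH1 from 0.18 to −0.54. PCDHB1 kept its sign there (0.69 with all libraries and 0.24 without). The other alternatives are not given for them. DESeq2 gave no adjusted p for PCDH18, PCDHB2, PCDHB5, PCDHB14, PCDHA4, PCDHGA6 and PCDHGB7, and the 1 CPM filter left out PCDHA4, PCDHB5, PCDHB14 and PCDHGB7. Without both R2 libraries, further settings were chosen after seeing the data. PCDHB5 and PCDH9 were called in each of them, with a log2 fold change of −4.49 to −3.27 and −1.7 to −1.21 when a further library was left out. The count of called genes was 2543 to 3700 and that of protocadherins 2 to 3 when a further library was left out, in fits where the lone library of a label is assumed to vary like the other pair.

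The number on at 2 CPM was 5 in control R2 and 5 in KO R2, and at 0.5 CPM 14 in KO R1 and 11 in KO R3. With on at 0.5 CPM 8 genes were switched between libraries, with on at 2 CPM 0, and with off at 0 counts 0, since PCDHB5 had at least 1 count in each library. PCDH18 lost its call with DESeq2 (−1.55), without KO R1 (−1.30) and without control R1 (−1.06), and PCDHGA6 was also called by limma-voom and without KO R1; the cause was not tested. Genes with few counts in each library, most of the alpha, beta and gamma genes among them, were too shallow to be tested.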
